A study of Homo sapiens with 4 samples.

Results

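The genes described here are 33 target genes and regulators of p53, taken as a list of symbols and measured in HCT116 cells after an siRNA against CDK8. A gene entered where the array held a transcript cluster (the set of probes that reports 1 transcript) annotated with that symbol alone, and the brightest such cluster stood for the gene. This held for 31 of the 33 genes, out of 22411 genes on the array with such a cluster, and each of the 31 had a single cluster. BTG2 and FDXR were not analysed here. Of the 31, 29 reached the signal filter (a mean log2 signal of 4.28, the median over all clusters) and were tested, among 13956 genes tested in all.

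HCT116 is an established human colon cancer cell line. The cells were transfected for 48 h with 50 nM of a control siRNA, whose sequence the labels do not give, or with 50 nM of an siRNA against CDK8, the cyclin-dependent kinase of the Mediator complex. RNA of the whole culture was read on 2 arrays per group. With a single group that received CDK8 siRNA, loss of CDK8 and other effects of that siRNA cannot be told apart. Replicates are labelled biological, with no word on separate cultures or days, so the p-values reflect only how these 4 samples vary, which may be technical.

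p53 is a transcription factor that is held at a low level by the ubiquitin ligase MDM2 and accumulates when DNA damage or other stress blocks that control. It binds paired half-sites in DNA and switches on genes that stop the cell cycle, repair DNA, adjust metabolism or kill the cell. Some of its targets, MDM2 first among them, act back on p53 and close a negative feedback loop. CDK8 is a kinase of Mediator, the complex through which transcription factors, p53 among them, reach RNA polymerase II.

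The p53 binding motif was looked for in the promoters, and the matches closest to it are shown here because they mark where the letters of the motif lie in genes whose RNA is described below. RefSeq promoter windows of the build GRCh38.p14 (250 bases before to 50 after a transcription start) were given for 27 of the 31 genes. The p53 consensus is a 10-base half-site, and a full site is 2 half-sites back to back, searched on both strands. MDM2 has 2 full sites in the window of its internal promoter, with 2 and 3 mismatches to the consensus, at chr12:68808923-68808980 on the plus strand, at positions -94 to -37 relative to one of its RefSeq starts. In the MDM2 line the capitals mark those 2 sites, and in the other lines they mark bases 4 to 7 of each half-site, the core of the motif.
MDM2: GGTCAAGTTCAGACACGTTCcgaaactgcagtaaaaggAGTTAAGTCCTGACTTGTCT
DDB2: gaaCAAGccctgggCATGttt
AEN: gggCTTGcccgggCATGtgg
GDF15: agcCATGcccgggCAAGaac
RPS27L: ggcCTAGagcagaCAAGccc
SESN1: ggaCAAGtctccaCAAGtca
XPC: gaaTTTGcccagaCAAGcaa

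The DDB2 match, at chr11:47214979-47214999 on the plus strand, starts at position 6 of the transcript and holds 2 half-sites without a mismatch, 1 base apart. Such a pair, with up to 13 bases between, stood in 0.028% of windows, and an overlapping full site in DDB2 had 1 mismatch. AEN, at chr15:88621306-88621325 on the plus strand, has a full site with 2 mismatches. The sites of GDF15 (chr19:18386186-18386205, plus strand), RPS27L (chr15:63157527-63157546, minus strand), SESN1 (chr6:109009018-109009037, minus strand) and XPC (chr3:14178570-14178589, minus strand) have 3 mismatches each. The 27 genes have 38 windows, since some have several starts. A full site with at most 3 mismatches stood in 8 of the 38 windows (7 genes) and in 5.2% of all 35116 windows. That limit was chosen after the sequences of these genes were seen, so the 2 shares are not an even comparison. A full site with at most 2 mismatches stood in 4 of the 38 (3 genes) and 0.649% of all. In both counts the sites of MDM2 were counted in overlapping windows. A half-site without mismatch stood in 5 of the 38 (AEN, DDB2, PLK2, RPS27L and SESN1) and in 6.63% of all. Motifs of other factors were also searched on both strands. The FOXO motif GTAAACA stood in 2 of the 38 windows (BTG1 and GDF15) and in 3.42% of all. The ATF4 motif TGATGNAA stood in 1 of the 38 (PLK3) and in 3.62% of all. The AP-1 motif TGANTCA stood in 5 of the 38, which belong to 3 genes (MDM2, SFN and EDA2R), and in 7.71% of all. The same site of MDM2, and the same site of EDA2R, was counted in overlapping windows. The 5 windows with a p53 half-site belong to 5 genes. A match is a run of letters in a window and was not tested as a binding site.

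Signals below are log2 values from RMA, a method that corrects background, equalises the arrays and summarises the probes. Over the transcript clusters the array medians still differed, at 4.24 and 4.24 for control siRNA against 4.32 and 4.31 for CDK8 siRNA. A difference is CDK8 siRNA minus control siRNA on the log2 scale with its standard error (SE). In each set of 4 values the control arrays 1 and 2 come first and the CDK8 siRNA arrays 1 and 2 second. A gene is said to have risen or fallen where limma's moderated test gave an adjusted p under 0.05 after Benjamini-Hochberg adjustment over all 13956 genes. Levels are not compared between genes, since probes differ in brightness. CDK8 itself read 9.99 and 10.04 on the control arrays against 7.25 and 7.45 on the CDK8 siRNA arrays, a fall of 6.34-fold (-2.67 ± 0.09, adjusted p = 4.43e-05). CDK19, the paralog of CDK8, was looked at after its values were known and was also lower, by 2.14-fold (-1.10 ± 0.09, adjusted p = 3.29e-04). The epithelial markers EPCAM, CDH1, KRT8, KRT18 and KRT19 averaged 11.1 and 11.1 on the control arrays against 11.9 and 11.7 after CDK8 siRNA. They did not move alike: CDH1 (2.83 ± 0.11, adjusted p = 6.11e-05) and EPCAM (0.65 ± 0.08, 0.00118) rose, KRT19 rose (0.43 ± 0.12, 0.0317) and KRT18 fell (-0.34 ± 0.09, 0.0304), and KRT8 did not pass (0.05 ± 0.13, 0.802). KRT18 passed in no fit without 1 array (0.0827 to 0.201), and KRT19 only in that without CDK8 siRNA array 2 (adjusted p of 0.204, 0.237 and 0.0749 in the others). Of 9 markers of blood, fibroblast and endothelial cells, 7 stayed under the filter, at 2.80 to 4.25, among them the defining PTPRC and PECAM1. Of these 7 the fibroblast marker DCN read 3.65 and 3.61 against 4.19 and 4.25 (0.59 ± 0.06, adjusted p = 0.00276 in a fit without the filter). The other 2, CD68 (1.36 ± 0.11, adjusted p = 3.39e-04) and COL1A1 (0.26 ± 0.07, adjusted p = 0.0287, and 0.084 to 0.135 with any of the arrays left out), rose. The 9 averaged 4.08 and 4.03 on the control arrays against 4.30 and 4.36 after CDK8 siRNA. Their part in the results was not tested.

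Of the 29 tested genes 19 rose and 5 fell, and 5 did not pass the test. The 24 that passed are 82.8% of the genes tested, against 49.5% of all genes tested. The 19 that rose are 65.5%, against 23.1% of all genes, and the 5 that fell are 17.2%, against 26.4%. The groups did not overlap in 26 of the 29, or 89.7%, against 74.7% of all genes, and 10 of the 29 passed the test and moved by at least 2-fold, 9 up and 1 down, or 34.5% against 10.7%. The median difference was 0.61 over the 29 genes and 0.005 over all genes tested, with a range over the 29 from -1.30 (SESN3) to 2.48 (GDF15). All 29 lay above the filter in each group, with a lowest group mean of 5.00, so no gene was tested through its higher group alone. In these bulk samples a change of RNA per cell and a change in the share of cells that hold the RNA cannot be told apart.

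**Figure D1:**
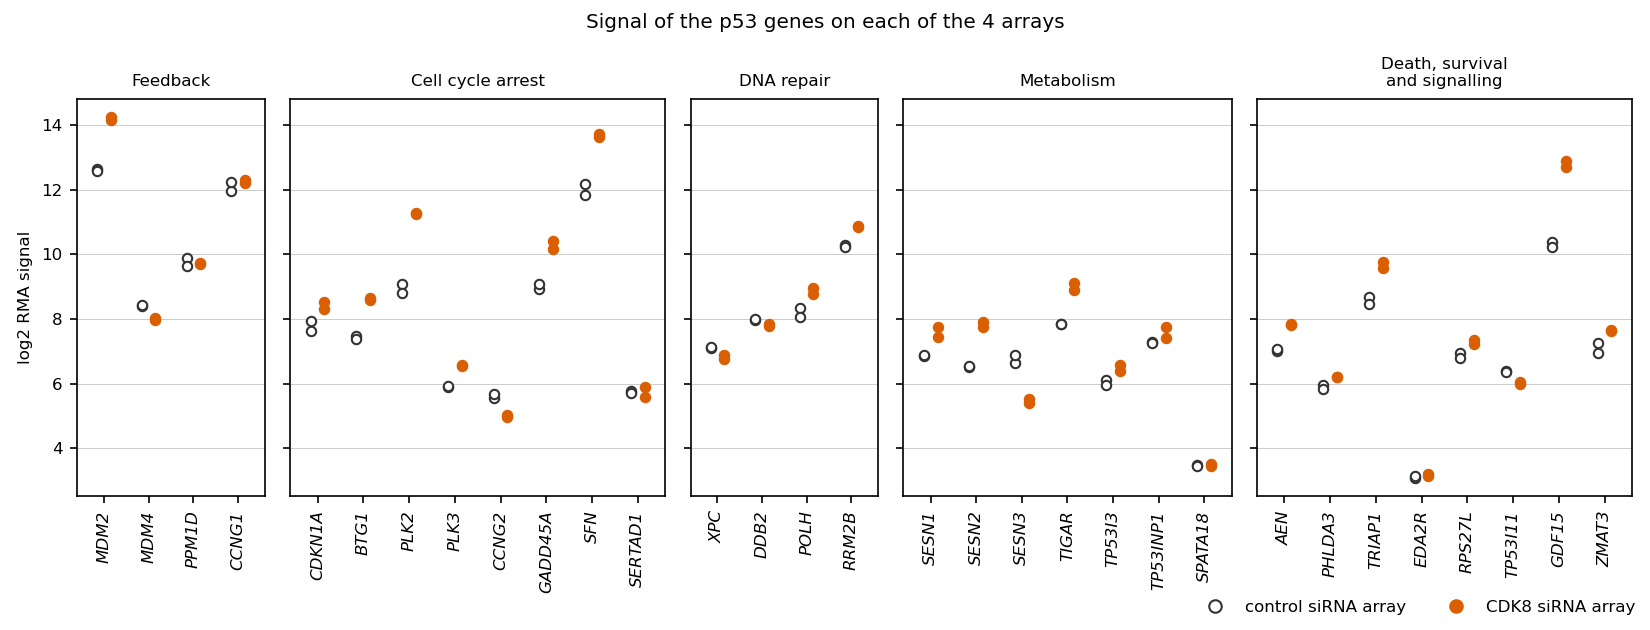
Signal (log2 RMA, vertical axis) of the 31 p53 genes on each of the 4 arrays, grouped by role, with open circles for control siRNA and filled circles for CDK8 siRNA. The pairs of filled circles stand clear above the open ones for GDF15, PLK2, SFN and MDM2, clear below for SESN3 and CCNG2, and SPATA18 and EDA2R sit at the bottom, between 3.09 and 3.52.

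Calls differed in how they stood when an array was left out. With each of the 4 arrays left out in turn, 14 genes passed in all 4 fits, of which 12 were higher (MDM2, BTG1, PLK2, PLK3, GADD45A, SFN, RRM2B, SESN2, TIGAR, AEN, TRIAP1 and GDF15) and 2 lower (CCNG2 and SESN3). The other 10 called genes lost their call in at least 1 of these fits, and are marked below. The counts were 14 higher and 2 lower without control array 1, 12 and 2 without control array 2, 14 and 4 without CDK8 siRNA array 1, and 13 and 4 without CDK8 siRNA array 2. A lone array in such a fit is assumed to vary like the other group. Each of these fits also called fewer of all tested genes, in both directions. Lost calls were therefore not confined to the genes named here and in the lists below. How far a lost call came from the smaller number of arrays or from the spread of that gene's own arrays was not tested.

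The feedback genes differed in direction. MDM2, the ligase that marks p53 for degradation, read 12.63 and 12.57 on the control arrays against 14.15 and 14.25 after CDK8 siRNA. Both CDK8 siRNA arrays lay above both controls by far more than the arrays of a group differed, a rise of 3.03-fold (1.60 ± 0.08, adjusted p = 8.21e-05). MDM4, the partner of MDM2 that blocks the activation domain of p53, read 8.40 and 8.42 against 7.96 and 8.02 and fell by 1.34-fold (-0.42 ± 0.07, adjusted p = 0.00473). Its groups did not overlap, but the call was lost without control array 1 (adjusted p = 0.0578) and without control array 2 (0.0622). PPM1D, the phosphatase WIP1 that removes activating phosphates from p53 and its kinases, read 9.88 and 9.65 against 9.70 and 9.72, with both CDK8 siRNA arrays between the controls (-0.06 ± 0.10, adjusted p = 0.678). CCNG1, or cyclin G1, which brings a phosphatase to MDM2, read 11.96 and 12.24 against 12.21 and 12.30, and its groups overlapped (0.16 ± 0.11, adjusted p = 0.302). Of these 4 targets, then, 1 rose and 1 fell, a share called of 50% that is close to the 49.5% of all genes, and the median difference was 0.05.

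The genes of cell cycle arrest had the highest median of the groups by role, 0.91 over 8 genes. Of the 8, 6 rose (75%, against 23.1% of all genes) and 1 fell (12.5%, against 26.4%). PLK2, a polo-like kinase of the stress response and the centriole cycle, read 9.08 and 8.82 on the control arrays against 11.26 and 11.28 after CDK8 siRNA. It rose by 4.99-fold (2.32 ± 0.10, adjusted p = 7.15e-05), with the CDK8 siRNA arrays closely paired above the controls. SFN, the 14-3-3 sigma protein that holds CDK1 out of the nucleus, read 12.19 and 11.85 against 13.72 and 13.64 and rose by 3.16-fold (1.66 ± 0.12, adjusted p = 2.77e-04). GADD45A, which binds and inhibits the CDK1 kinase and takes part in stress signalling, went from 8.93 and 9.09 to 10.18 and 10.41 (2.44-fold, 1.29 ± 0.11, adjusted p = 3.89e-04). In both genes every CDK8 siRNA array lay above every control array by more than 1 log2 unit.

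CDKN1A, which encodes the CDK inhibitor p21 and is the best known arrest target, had a smaller difference than those genes. It read 7.95 and 7.63 on the control arrays against 8.53 and 8.32 after CDK8 siRNA, without overlap, and rose by 1.55-fold (0.64 ± 0.13, adjusted p = 0.0106). Its SE was among the widest of the genes here, whose SEs ran from 0.07 to 0.13, and the call was lost with any of the 4 arrays left out: adjusted p = 0.0517 and 0.109 without control arrays 1 and 2, and 0.146 and 0.0887 without CDK8 siRNA arrays 1 and 2. BTG1, an antiproliferative protein that acts on mRNA deadenylation, rose by 2.27-fold from 7.48 and 7.38 to 8.58 and 8.64 (1.18 ± 0.08, adjusted p = 1.81e-04). PLK3, another polo-like kinase of the stress response, rose by 1.56-fold from 5.91 and 5.92 to 6.54 and 6.57 (0.64 ± 0.07, adjusted p = 9.07e-04), with arrays of a group nearly alike. CCNG2, or cyclin G2, an unusual cyclin that rises in quiescent cells, was the only one of the 8 to fall, by 1.54-fold from 5.57 and 5.68 to 4.98 and 5.02 (-0.63 ± 0.08, adjusted p = 0.00145). SERTAD1, which binds CDK4 and E2F partners, read 5.76 and 5.70 against 5.91 and 5.60, with the controls between the CDK8 siRNA arrays (0.03 ± 0.12, adjusted p = 0.880).

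The 4 repair genes split, with a median difference of 0.22. Of these, 2 were higher (50%, against 23.1% of all genes), 1 was lower (25%, against 26.4%) and 1 did not pass. RRM2B, the p53-inducible small subunit of ribonucleotide reductase that supplies deoxynucleotides, read 10.28 and 10.24 against 10.86 and 10.87. It rose by 1.52-fold (0.61 ± 0.07, adjusted p = 0.00113), and the arrays within each group were nearly equal. POLH, the translesion polymerase eta that copies past ultraviolet damage, rose by 1.59-fold from 8.33 and 8.06 to 8.96 and 8.77 (0.67 ± 0.12, adjusted p = 0.00591). That call was lost without control array 2 (adjusted p = 0.0826), CDK8 siRNA array 1 (0.103) or CDK8 siRNA array 2 (0.0677). XPC and DDB2 encode damage sensors of nucleotide excision repair. XPC fell by 1.23-fold from 7.11 and 7.12 to 6.88 and 6.76 (-0.30 ± 0.08, adjusted p = 0.0234), a call lost without control array 1 (adjusted p = 0.131), control array 2 (0.140) or CDK8 siRNA array 2 (0.0776) and with the replicate number as a block (0.0512). DDB2 read 7.98 and 7.99 against 7.85 and 7.77, without overlap and with a difference that did not pass the test (-0.18 ± 0.07, adjusted p = 0.0973). With each array centred on its median, DDB2 passed as lower (-0.25, adjusted p = 0.0303).

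Among the 6 tested genes of metabolism and redox control 4 rose (66.7%, against 23.1% of all genes) and 1 fell (16.7%, against 26.4%). Their median difference was 0.59, and the 3 sestrins did not move together. Sestrins are stress proteins that curb the growth kinase mTORC1. SESN2 read 6.53 and 6.54 on the control arrays against 7.76 and 7.90 after CDK8 siRNA, a rise of 2.45-fold (1.30 ± 0.08, adjusted p = 1.60e-04). SESN3 read 6.63 and 6.88 against 5.40 and 5.52 and fell by an equal factor, 2.45-fold (-1.30 ± 0.11, adjusted p = 3.72e-04). In both genes the groups stood apart by more than 1 log2 unit, in opposite directions. SESN1 rose by 1.64-fold from 6.85 and 6.89 to 7.43 and 7.74 (0.72 ± 0.12, adjusted p = 0.00405), and the call was lost without control array 1 (adjusted p = 0.0959) or control array 2 (0.0903).

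TIGAR, a phosphatase that lowers the glycolytic activator fructose-2,6-bisphosphate, rose by 2.24-fold from 7.84 and 7.85 to 9.12 and 8.90 (1.17 ± 0.09, adjusted p = 3.48e-04). TP53I3, a quinone oxidoreductase linked to reactive oxygen species, read 6.10 and 5.96 against 6.59 and 6.39 and rose by 1.38-fold (0.46 ± 0.10, adjusted p = 0.0120). Its groups did not overlap, and it passed in no fit that left an array out: adjusted p = 0.0866 and 0.139 without control arrays 1 and 2, and 0.0948 and 0.0508 without CDK8 siRNA arrays 1 and 2. TP53INP1, a stress protein of autophagy and p53 phosphorylation, read 7.30 and 7.27 against 7.40 and 7.74 and did not pass (0.29 ± 0.12, adjusted p = 0.109). Both CDK8 siRNA arrays lay above the controls but differed from each other, and the gene passed without CDK8 siRNA array 1 (adjusted p = 0.0351). SPATA18, which acts in mitochondrial quality control, lay under the filter on every array, at 3.50 and 3.44 against 3.45 and 3.52, and was not tested. In a fit without the filter its adjusted p was 0.893.

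**Figure D2:**
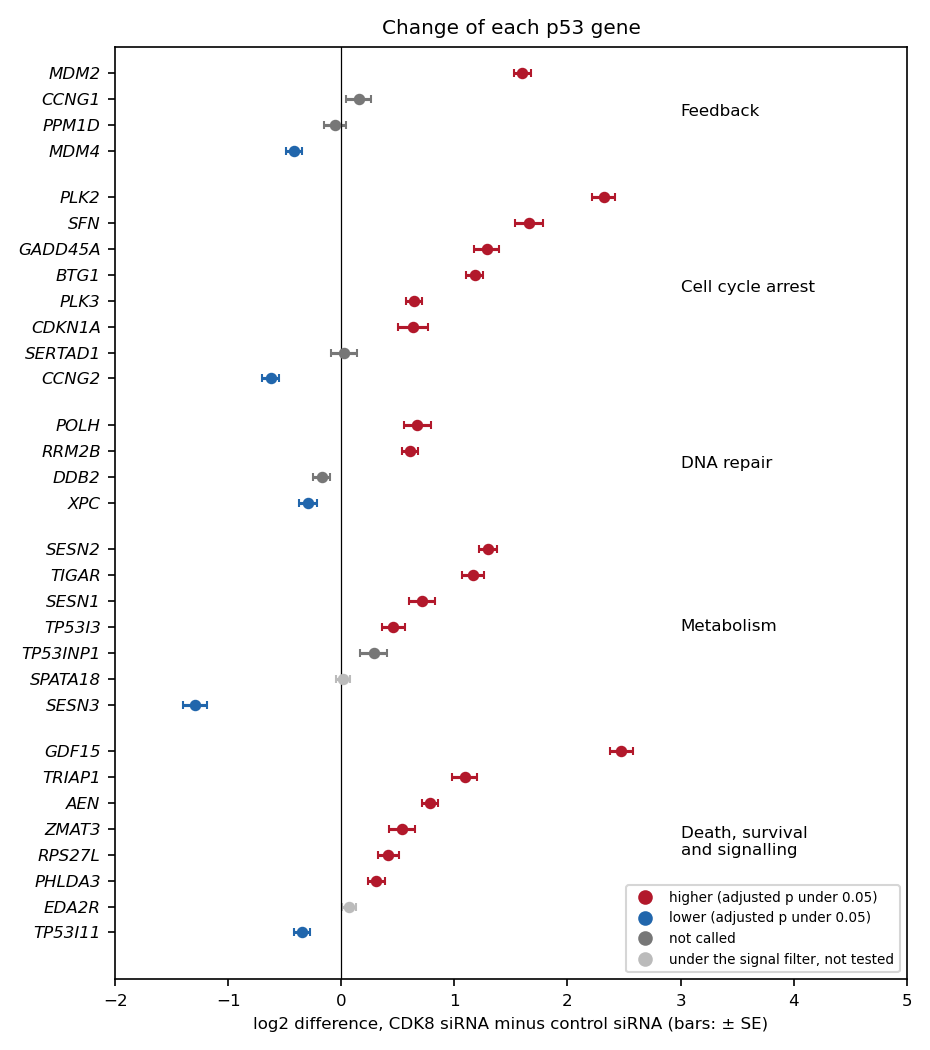
Log2 difference (horizontal axis, CDK8 siRNA minus control siRNA) of each p53 gene with bars of ± SE, grouped by role, in red for genes that rose, blue for genes that fell and grey for the rest. Each group of roles holds 1 gene that fell: MDM4, CCNG2, XPC, SESN3 and TP53I11.

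The genes of death, survival and signalling all passed the test where tested, against 49.5% of all genes, with a median difference of 0.54. Of these 7, 6 were higher (85.7%, against 23.1% of all genes) and 1 was lower (14.3%, against 26.4%). GDF15, a secreted cytokine of the TGF-beta family that many stresses induce, read 10.39 and 10.23 on the control arrays against 12.69 and 12.88 after CDK8 siRNA. This was the largest rise of the 29 genes, 5.56-fold (2.48 ± 0.10, adjusted p = 6.11e-05). TRIAP1, a small protein that restrains apoptosis, rose by 2.13-fold from 8.68 and 8.48 to 9.57 and 9.77 (1.09 ± 0.11, adjusted p = 6.92e-04). AEN, a nuclease that helps to break up DNA in dying cells, rose by 1.72-fold from 7.01 and 7.07 to 7.81 and 7.84 (0.79 ± 0.07, adjusted p = 4.97e-04). In all 3 genes both CDK8 siRNA arrays lay above both control arrays.

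The other rises of this kind were smaller. ZMAT3, a zinc finger protein that binds RNA, read 7.26 and 6.95 against 7.63 and 7.66 (1.45-fold, 0.54 ± 0.12, adjusted p = 0.0114) and lost its call without control array 2 (adjusted p = 0.0618), CDK8 siRNA array 1 (0.130) or CDK8 siRNA array 2 (0.141). RPS27L, a ribosomal protein paralog that binds MDM2, read 6.95 and 6.78 against 7.22 and 7.34 (1.33-fold, 0.42 ± 0.09, adjusted p = 0.0131). PHLDA3, which competes with the survival kinase AKT for membrane lipids, read 5.96 and 5.85 against 6.22 and 6.21 (1.24-fold, 0.31 ± 0.08, adjusted p = 0.0184). In ZMAT3, RPS27L and PHLDA3 both CDK8 siRNA arrays lay above both controls. RPS27L and PHLDA3 lost their calls with any array left out, at adjusted p = 0.0622 to 0.119 for RPS27L and 0.0637 to 0.109 for PHLDA3, and RPS27L also with the replicate number as a block (0.0636). TP53I11, a p53-inducible membrane protein, read 6.40 and 6.36 against 6.00 and 6.06 and fell by 1.27-fold (-0.35 ± 0.07, adjusted p = 0.00961). The TP53I11 call was lost without control array 1 (adjusted p = 0.0837), control array 2 (0.0725) or CDK8 siRNA array 1 (0.0558). EDA2R, a receptor of the TNF family, lay under the filter at 3.09 and 3.13 against 3.15 and 3.20 and was not tested, with an adjusted p of 0.508 in a fit without the filter.

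Relatives of these genes, which are not all p53 targets, were set beside them. Of 17 paralogs tested, 5 rose (29.4%, against 23.1% of all genes) and 7 fell (41.2%, against 26.4%), with a median difference of 0.12. RRM2, the small ribonucleotide reductase subunit of dividing cells, fell by 3.89-fold (-1.96 ± 0.10, adjusted p = 9.38e-05) where RRM2B rose. PLK1, the mitotic polo-like kinase, fell by 1.69-fold (-0.76 ± 0.07, adjusted p = 5.64e-04) where PLK2 and PLK3 rose. PHLDA1 (-0.78 ± 0.08, adjusted p = 7.32e-04) and PHLDA2 (-0.49 ± 0.07, adjusted p = 0.00318) fell where PHLDA3 rose, and the call of PHLDA2 was lost without control array 2 (adjusted p = 0.0519). GADD45B went with GADD45A and rose by 4.30-fold, from 6.99 and 6.96 to 9.04 and 9.12 (2.11 ± 0.07, adjusted p = 4.43e-05). The counts of paralogs were 2 higher and 4 lower without control array 1, 1 and 4 without control array 2, and 2 and 5 without either CDK8 siRNA array. Whether probes of 1 paralog read RNA of another was not tested.

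**Figure D3:**
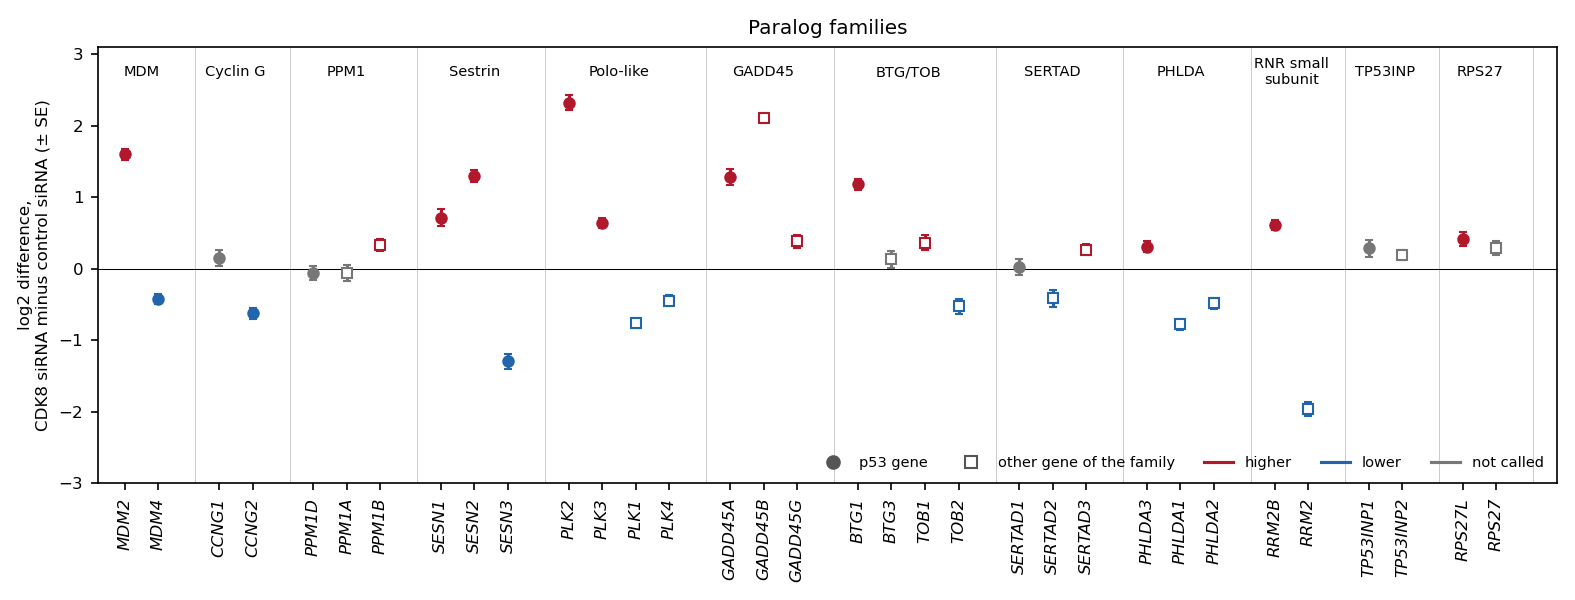
Log2 difference (vertical axis, CDK8 siRNA minus control siRNA, bars ± SE) of p53 genes, as filled circles, beside the other genes of their families, as open squares, in red where higher, blue where lower and grey where not called. RRM2B and RRM2, and the PLK and PHLDA families, hold genes on both sides of 0, and so do MDM2 with MDM4 and the 3 sestrins.

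p53 also has targets that carry out apoptosis, here a list chosen with earlier results of these data known. Of 12 such genes tested 8 rose (66.7%, against 23.1% of all genes) and 3 fell (25%, against 26.4%). Their median difference was 0.69. PMAIP1, which encodes the BH3 protein NOXA, read 7.40 and 7.81 on the control arrays against 13.38 and 13.44 after CDK8 siRNA, a rise of 55.9-fold (5.81 ± 0.14, adjusted p = 3.29e-05). It was higher by more on this scale than any of the 29 genes above. The death receptors rose together: TNFRSF10A by 3.29-fold (1.72 ± 0.10), TNFRSF10B by 2.45-fold (1.29 ± 0.12) and FAS by 1.49-fold (0.58 ± 0.07), as did the decoy receptor TNFRSF10D by 2.62-fold (1.39 ± 0.13), with adjusted p of 1.34e-04, 5.93e-04, 0.00172 and 6.12e-04. PERP, a membrane protein of desmosomes and cell death (0.93 ± 0.09, adjusted p = 5.44e-04), DRAM1, a lysosomal protein of autophagy (0.79 ± 0.07, adjusted p = 4.69e-04), and AIFM2, an oxidoreductase (0.52 ± 0.08, adjusted p = 0.00314), also rose. AIFM2 lost its call without control array 1 (adjusted p = 0.0631) or control array 2 (0.0619).

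APAF1, the scaffold of the caspase-activating apoptosome, read 8.96 and 9.07 against 7.37 and 7.66 and fell by 2.83-fold (-1.50 ± 0.12, adjusted p = 2.95e-04). BID, a BH3 protein that links death receptors to mitochondria, fell (-0.68 ± 0.10, adjusted p = 0.00278), a call lost without control array 1 (adjusted p = 0.0543) or CDK8 siRNA array 2 (0.0653). PIDD1, a scaffold for caspase-2, fell (-0.22 ± 0.07, adjusted p = 0.0480), and passed in none of the fits without 1 array (0.109 to 0.172). BAX, the pore-forming protein of the mitochondrial outer membrane, read 7.12 and 6.98 against 7.03 and 7.10 and did not pass (0.02 ± 0.08, adjusted p = 0.898). TP53AIP1, SIVA1, CDIP1 and IGFBP3 lay under the filter, and BBC3 and TNFRSF10C were not analysed here. The apoptotic genes were 7 higher and 1 lower without control array 1, 7 and 2 without control array 2, 8 and 2 without CDK8 siRNA array 1, and 8 and 1 without CDK8 siRNA array 2.

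Of 23 direct regulators of p53 tested, 4 rose, 7 fell and 12 did not pass, with a median difference of 0.04. The 47.8% that passed are close to the 49.5% of all genes, with 17.4% higher and 30.4% lower. BRD7, a bromodomain protein that assists p53 in transcription, fell by 5.64-fold, from 10.95 and 11.10 to 8.56 and 8.50 (-2.50 ± 0.08, adjusted p = 4.06e-05). ATR, a kinase of the DNA damage response that acts on p53, fell by 1.63-fold (-0.71 ± 0.07, adjusted p = 6.32e-04), and TP73, a relative of p53, fell by 1.35-fold (-0.44 ± 0.07, adjusted p = 0.00397). The ubiquitin ligases UBE4B (0.62 ± 0.08, adjusted p = 0.0021) and RCHY1 (0.77 ± 0.11, adjusted p = 0.00296), which act on p53, rose. Without control array 1 the adjusted p was 0.0534 for TP73, 0.0572 for UBE4B and 0.0630 for RCHY1, and without control array 2 it was 0.0577, 0.0593 and 0.0826. The counts of regulators were 0 higher and 2 lower without either control array, 2 and 5 without CDK8 siRNA array 1, and 3 and 5 without CDK8 siRNA array 2.

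Of 56 further p53 targets tested, drawn from common target lists, 20 rose, 10 fell and 26 did not pass, and their median difference was 0.07. KITLG, the ligand of the KIT receptor, fell by 10.9-fold from 16.60 and 16.73 to 13.11 and 13.32 (-3.45 ± 0.10, adjusted p = 3.31e-05). ATF3, a stress-induced transcription factor, rose by 6.94-fold (2.80 ± 0.14, adjusted p = 8.91e-05), ABHD4, a lipid hydrolase, by 5.30-fold (2.41 ± 0.08, adjusted p = 3.83e-05), DUSP14, a phosphatase of MAP kinases, by 3.46-fold (1.79 ± 0.07, adjusted p = 5.70e-05) and SERPINB5, or maspin, by 3.18-fold (1.67 ± 0.07, adjusted p = 7.05e-05). Thus 35.7% of these targets rose and 17.9% fell, against the 23.1% and 26.4% of all genes given above. Their counts were 11 higher and 3 lower without control array 1, 12 and 3 without control array 2, 14 and 7 without CDK8 siRNA array 1, and 13 and 5 without CDK8 siRNA array 2.

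The last list followed p21 to the machinery it acts on, the cyclins, their kinases and the RB and DREAM proteins that repress cell cycle genes. Of 20 such genes 13 fell (65%, against 26.4% of all genes) and 3 rose (15%, against 23.1%), with a median difference of -0.87. CDK4, the kinase partner of D cyclins, fell by 4.81-fold from 11.38 and 11.33 to 9.28 and 8.90 (-2.27 ± 0.13, adjusted p = 1.40e-04). CCNB1, the mitotic cyclin B1, fell by 3.04-fold (-1.61 ± 0.07, adjusted p = 6.99e-05) and CCNE1, the cyclin E1 of S phase entry, by 2.93-fold (-1.55 ± 0.08, adjusted p = 9.64e-05). RBL2, the pocket protein p130 of the DREAM complex, fell by 2.63-fold (-1.40 ± 0.07, adjusted p = 8.91e-05) and TFDP1, the DNA-binding partner of E2F, by 2.14-fold (-1.10 ± 0.07, adjusted p = 1.63e-04). The 3 that rose, named here after their values were seen, were CDK6, the other kinase partner of D cyclins, by 2.27-fold (1.19 ± 0.10, adjusted p = 3.97e-04), CCND1, or cyclin D1, by 1.83-fold (0.87 ± 0.10, adjusted p = 0.00106) and the DREAM subunit gene LIN54 (0.31 ± 0.07, adjusted p = 0.0153), which passed in no fit without 1 array (0.0534 to 0.101). The DREAM subunit genes LIN9 and LIN37, at 0.06 and 0.06, and MYBL2, at 0.07, did not pass. Nor did the kinase CDK2, whose groups overlapped (-0.04 ± 0.07, adjusted p = 0.694). With any 1 array left out, 2 genes of this list were higher and 11 or 12 lower.

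**Figure D4:**
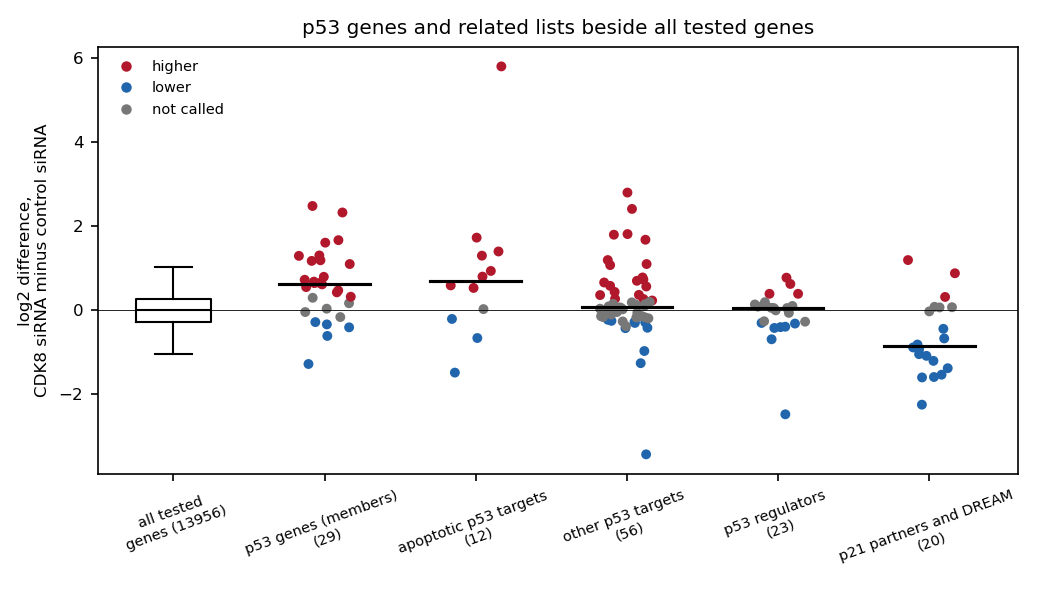
Log2 difference (vertical axis, CDK8 siRNA minus control siRNA) of each tested gene in the list of p53 genes and in the related lists, with a black line at the median of each list, beside a box with whiskers for all 13956 tested genes. The medians of the p53 genes (0.61) and apoptotic targets (0.69) lie above that of all genes (0.005), those of further targets (0.07) and regulators (0.04) near it, and that of the p21 and DREAM genes (-0.87) below.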

How the data were processed

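RNA of 4 HCT116 samples was read on whole-transcriptome arrays from Affymetrix after biotin labelling, per the labels' protocols. The deposited values were log2 signals, for which the submitters' processing notes name Affymetrix Expression Console and RMA. Their versions and the genome build of the array were not given in the sources used here. Summaries by RMA compress differences at low signal. The 67528 transcript clusters were used and 2995 other rows left out. Symbols came from the platform annotation, with 306 updated through RefSeq. For genes with several clusters the brightest was taken, and genes were tested where the mean of the 4 arrays reached 4.28, the median over clusters.

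Groups and replicate numbers came from the sample titles. Groups were compared with limma 3.58.1 (lmFit, eBayes, no covariates) in R 4.3.3, two-sided, with Benjamini-Hochberg adjusted p over all 13956 genes; the fit was tested on simulated data. Across tested genes the control arrays correlated with r = 0.998, the CDK8 siRNA arrays with 0.997 and arrays of different groups with 0.963 to 0.965. The number of arrays limits the precision, and the median SE was 0.0832.

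The genes and lists were chosen with earlier results of these data known. All of the 33 genes and all apoptotic targets are named, and up to 5 genes of smallest p of each other list. In the list of p21 partners and DREAM genes, further genes outside those 5 are also named. Promoter windows were searched with pandas 2.3.3, and the 3-mismatch limit was chosen after the sequences were seen. Figures used matplotlib 3.10.9. Alternatives were other filters, normalizations, variance models, cluster rules and thresholds, a replicate block and leaving out each array.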

Additional observations from a re-analysis of the deposited data

How the results depend on the processing

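With any 1 array left out, the p53 genes called numbered 12 to 14 higher and 2 to 4 lower, against 19 and 5, and all tested genes called 1377 to 2097 higher and 1745 to 2414 lower, against 3229 and 3679. Where only signals of at least 6.17 (their 75th percentile) were tested, 3 p53 genes were lower, as CCNG2 and SESN3 lay under that limit. With a threshold of 2-fold added to the adjusted p, 9 p53 genes were higher and 1 lower, and 713 and 787 of all genes. With the replicate number as a replicate block, 18 p53 genes were higher and 4 lower (2838 and 3300 of all genes), as XPC and RPS27L lost their calls. Across all tested genes, the replicate-1 arrays' deviations from their group means correlated between the 2 groups with r = 0.12. Nothing in the labels says that a number marks a shared culture or day. Centring arrays gave 19 higher and 6 lower, with DDB2 added, and moved all genes to 2741 higher and 4359 lower. No filter, quantile normalization, eBayes with a trend or robust settings and the mean of clusters gave 19 and 5, and an adjusted p under 0.01 gave 14 and 4. No called p53 gene changed direction under these alternatives. The planned comparison of paralog proteins was not run. With 2 arrays a group, the smallest difference called over all genes was 0.21.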
